A study of Mus musculus with 8 samples.

Results

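Acta2, Tagln, Ly6c1, Col1a2, Serping1 and Tgfbi are genes used as markers of vessel walls, vessel lining and the connective tissue around brain vessels and meninges. They were chosen by gene symbol from a deposited table of hippocampal transcripts, where they hold 7 of 1679 transcript rows, 1 row each and 2 for Tgfbi. No row without a symbol shares a locus with them, so 0 were added. The hippocampi came from C57BL/6 mice aged 8 weeks, with 4 libraries of wild-type controls and 4 of a Jade2 knockout. The sources used here do not give how the Jade2 allele was made or whether each library is a separate animal. P-values in comparisons of these libraries therefore measure the spread between samples, which may be technical. The table itself is a list selected on the knockout-against-control contrast: in the authors' deposited table no unadjusted p exceeds 0.0498, and log2 fold changes start at an absolute size of 1.00. The values that chose the members are therefore these differences. Every difference between knockout and control described here was part of that selection and is given as a description. Counts of rows that pass a threshold in that contrast are given only beside the same count for the whole list, and nothing is read from them.

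Small arteries in the brain are wrapped by smooth muscle cells, which contract with alpha-smooth muscle actin (Acta2) and its actin-binding partner transgelin (Tagln). Endothelial cells line the lumen and, in mouse brain, carry the membrane-anchored LY6 protein Ly6c1. Fibroblasts of the meninges and of the perivascular space make type I collagen (Col1a2 is one of its chains), while Tgfbi is a secreted matrix protein induced by TGF-beta and Serping1 is the inhibitor of the first complement proteases. In tissue RNA, fewer cells of a type and less RNA per cell cannot be told apart. Tgfbi and Serping1 are also made by other cells, and Ly6c1 has a closely related neighbour, Ly6c2, with which reads can be confused.

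Jade2 itself was checked first. Its transcript ENSMUST00000109091 ranged from 1.41 to 5.05 FPKM in the controls and was listed at 0 in all 4 knockouts, while the merged Jade2 model MERGE.3721.1 was listed at 0 in all controls and ranged from 3.59 to 12.3 FPKM in the knockouts. FPKM, fragments scaled to transcript length and library size, is the unit assumed here, since the table names none. It holds no counts, so the depth behind each value is unknown. Median listed abundance per library lay between 0.773 and 0.900 FPKM.

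The 7 rows are isoforms, and only 4 of them code for protein: the rows of Acta2, Ly6c1 and Col1a2 and 1 of the Tgfbi rows. These 4 are also annotated as principal isoforms in GENCODE M21 on GRCm38. The Tagln row is a retained-intron transcript, the Serping1 row is a noncoding processed transcript of 2 exons, and the other Tgfbi row is annotated as a target of nonsense-mediated decay. The coding isoforms of Tagln and Serping1 were not analysed here, so the levels of those genes as a whole are not known from these rows.

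The listed rows differ from a sister isoform to unequal extents, and the borders where they part are printed to show what each row is. For Tgfbi, both rows share 2714 exon bases, and 289 bases belong to the decay isoform alone. Those include 22 bases at the start of exon 15, where an earlier splice acceptor is used (chr13:56637116-56637137, plus strand). The stretch from chr13:56636644 to 56637165 is printed spliced, 5′ to 3′, with the 22 added bases in capitals.
Tgfbi decay isoform ENSMUST00000225600: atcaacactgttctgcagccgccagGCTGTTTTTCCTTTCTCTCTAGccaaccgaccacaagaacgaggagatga
Tgfbi coding isoform ENSMUST00000045173: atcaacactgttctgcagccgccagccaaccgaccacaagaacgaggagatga
Read from the annotated start codon, the decay isoform meets a TGA stop after 651 codons, at chr13:56637163, and 2 exon junctions lie downstream of it. The coding isoform reads through the same letters in another frame and stops after 683 codons, with 0 junctions downstream.

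For Tagln, the listed isoform keeps an intron of 364 bases (chr9:45930936-45931299, minus strand), and it shares 569 of its 933 exon bases with the spliced isoform, which has 1026 bases that the listed one lacks. The borders of the intron are printed with intron bases in capitals, above the junction of the spliced isoform.
Tagln ENSMUST00000216035, upstream border: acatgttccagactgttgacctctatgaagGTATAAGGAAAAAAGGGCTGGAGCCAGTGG
Tagln ENSMUST00000216035, downstream border: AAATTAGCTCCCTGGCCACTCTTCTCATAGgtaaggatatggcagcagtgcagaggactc
Tagln spliced isoform ENSMUST00000034590: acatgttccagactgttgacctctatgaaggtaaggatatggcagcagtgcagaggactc
The kept intron lies inside the span of Gm48529, an annotated antisense gene (span chr9:45930112-45933738, plus strand). The sources used here do not say whether counting used strand, so reads of the intron and of the antisense gene cannot be told apart.

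For Serping1, 314 of the listed isoform's 903 exon bases (chr2:84774815-84775128, minus strand) lie outside the coding isoform ENSMUST00000023994, which has 1179 bases that the listed one lacks. The last 30 of them are printed in capitals, followed by 30 bases that both isoforms share.
Serping1 ENSMUST00000131456: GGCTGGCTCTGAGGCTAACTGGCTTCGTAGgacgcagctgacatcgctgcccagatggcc
The Ly6c1 row ENSMUST00000179762 has the same coding sequence as its sister isoform ENSMUST00000065408, and 15 of its 838 exon bases are its own. An abundance for such a row depends on how reads were divided among isoforms that are almost the same.

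Mean abundance was higher in the knockout for 6 of the 7 rows and lower for 1, the Tgfbi decay isoform. Over the whole list, 48.5% of rows are higher in the knockout. The groups did not overlap in 5 of the 7 rows, against 36.1% of all listed rows. In 4 of these the knockout was the higher group, as in 19.7% of all listed rows. Without control replicate 4 the groups did not overlap in 7 of 7, against 47.1% of all listed rows. That library is the only control that reaches the knockouts in the 2 rows that overlap, so leaving it out fixes this count. Of the 7, 0 passed an adjusted p of 0.05 as the authors' deposited table gives it, where 15 of 1679 rows did (0.893%), and the lowest adjusted p of these rows there was 0.512. Only 4 of the 7, the coding rows, have a mean of at least 1 FPKM and entered the fit with limma across the list, which called 0 of 4 among them and 0 of 849 rows in all (0%) at an adjusted p of 0.05. At an unadjusted p under 0.05 limma had 3 of these 4 and 599 of the 849, rows that were all listed on this same contrast. The median log2(FPKM + 0.5) difference was 1.00 over the 7 rows, -0.51 over all listed rows and 1.08 over the listed rows that are higher in the knockout.

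**Figure D1:**
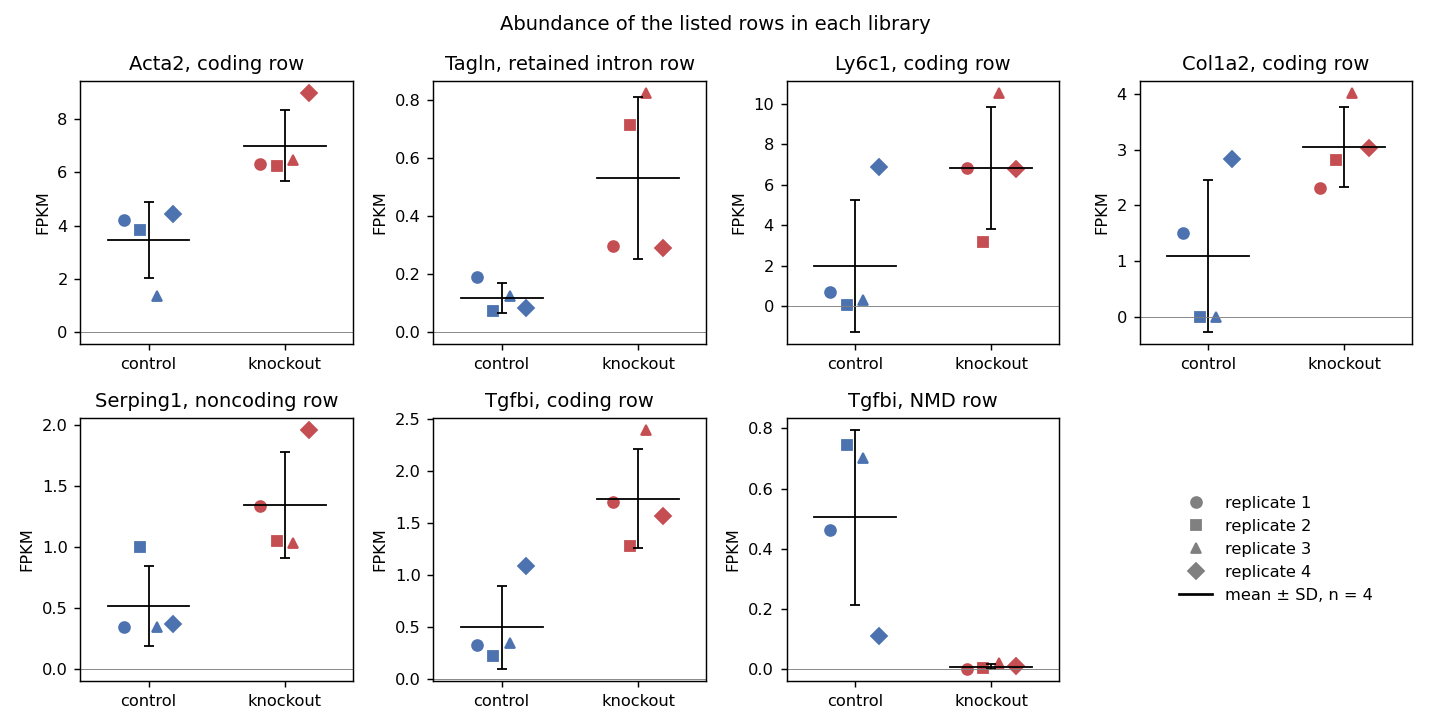
Abundance in FPKM (vertical axis, linear, a scale for each panel) of the 7 listed rows in 4 control (blue) and 4 knockout (red) libraries, with symbols for replicates and black bars for the mean ± SD (n = 4). The Acta2 controls reach 4.43 FPKM at most and its knockouts 6.23 FPKM at least, while control replicate 4 stands among the knockouts for Ly6c1 and Col1a2.

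Acta2, the contractile actin of smooth muscle, was the row with the highest control level per length. Its coding transcript ENSMUST00000039631 (mm10 chr19:34241090-34255336, minus strand, 9 exons in the annotation) stood at 4.21, 3.86, 1.36 and 4.43 FPKM in control replicates 1 to 4 and at 6.31, 6.23, 6.48 and 8.98 FPKM in knockout replicates 1 to 4. All knockout libraries lay above all controls, control replicate 3 was low and knockout replicate 4 was high. The means were 3.46 ± 1.42 FPKM in the control and 7.00 ± 1.32 FPKM in the knockout (SD, n = 4 per group), a ratio of 2.02. On the log2(FPKM + 0.5) scale, which understates changes of low rows, the Acta2 difference was 1.00 (SE 0.35). In the authors' deposited table its log2 fold change is 1.10, the one nearest to the listing limit among the 7, with an adjusted p of 0.888.

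Tagln, the actin-binding partner of Acta2, was represented by a far less abundant row. The retained-intron transcript stood at 0.189, 0.0723, 0.126 and 0.0845 FPKM in the controls and at 0.297, 0.714, 0.823 and 0.290 FPKM in the knockouts. The groups did not overlap, and knockout replicates 2 and 3 were more than 2 times as high as knockout replicates 1 and 4. Its means were 0.118 ± 0.0529 and 0.531 ± 0.278 FPKM (SD, n = 4 per group). Its log2 difference is set by the pseudocount, at 0.70 with 0.5 and 1.45 with 0.1. The knockout library highest for Acta2, replicate 4, was the lowest knockout for this Tagln isoform.

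Ly6c1, the endothelial LY6 protein, had the widest spread among controls. The coding transcript ENSMUST00000179762 (chr15:75045017-75048813, minus strand, 1 of 7 annotated isoforms) stood at 0.714, 0.0483, 0.296 and 6.87 FPKM in the controls and at 6.85, 3.18, 10.5 and 6.77 FPKM in the knockouts. Control replicate 4 lay inside the knockout range, and the highest control was 142 times the lowest. The Ly6c1 means were 1.98 ± 3.27 FPKM in the control and 6.83 ± 3.01 FPKM in the knockout (SD, n = 4 per group), a ratio of 3.45. Without control replicate 4 the control mean was 0.353 ± 0.336 FPKM (SD, n = 3), the ratio was 19.4 and the groups no longer overlapped.

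Col1a2, a chain of type I collagen, also had its highest control value in replicate 4. Its principal transcript ENSMUST00000031668 (chr6:4505493-4541544, plus strand, 52 exons) stood at 1.50, 0, 0 and 2.84 FPKM in the controls and at 2.32, 2.81, 4.03 and 3.03 FPKM in the knockouts. Control replicates 2 and 3 were listed at 0, which can be a failed estimate, and control replicate 4 lay inside the knockout range. A short annotated gene, Gm43921, overlaps Col1a2 on the same strand. Because of the values of 0, the size of the Col1a2 difference follows the pseudocount. On the log2 scale it was 1.19 with a pseudocount of 1, 1.62 with 0.5, 2.73 with 0.1 and 6.04 with 0.001. The authors' deposited table gives 6.00. A pseudocount of 0.001 came within 0.01 of their log2 fold change in 35 of 1679 listed rows, and in 0 of the 7 member rows. It is not taken as the one they used. The mean in the knockout was 3.05 ± 0.717 FPKM (SD, n = 4), and the ratio to the control mean was 2.81 with all libraries and 6.10 without control replicate 4.

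Serping1, the inhibitor of the complement proteases C1r and C1s, was listed through its short noncoding isoform. This row stood at 0.346, 1.00, 0.347 and 0.367 FPKM in the controls and at 1.34, 1.04, 1.03 and 1.96 FPKM in the knockouts. The groups missed each other narrowly, since control replicate 2, at 1.00 FPKM, lay just under knockout replicate 3, and the other 3 controls were close together. The Serping1 means were 0.515 ± 0.324 and 1.34 ± 0.434 FPKM (SD, n = 4 per group), a log2(FPKM + 0.5) difference of 0.88 (SE 0.26).

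**Figure D2:**
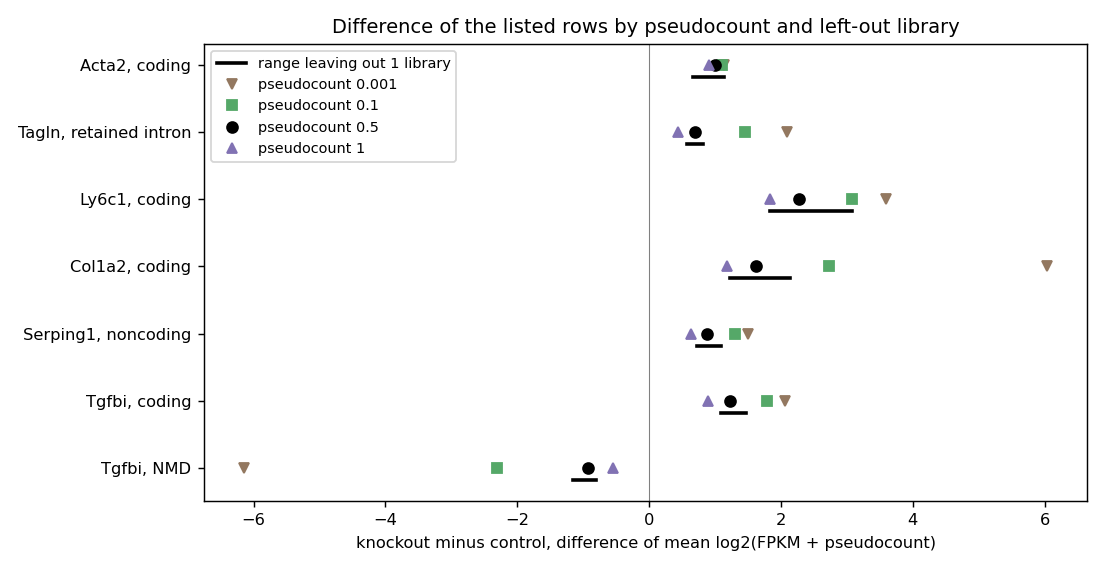
Difference between knockout and control (horizontal axis, mean log2(FPKM + pseudocount)) for the 7 rows, at 4 pseudocounts (markers) and over the fits that leave out 1 library (black bars, at a pseudocount of 0.5). Acta2 scarcely moves with the pseudocount, Col1a2 spans 1.19 to 6.04, and every row keeps its sign, which the selection of the list fixes.

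Tgfbi, the TGF-beta-induced matrix protein, was listed in both directions. Its coding transcript ENSMUST00000045173 (chr13:56609586-56639358, plus strand, 17 exons) stood at 0.321, 0.224, 0.342 and 1.09 FPKM in the controls and at 1.70, 1.28, 2.39 and 1.56 FPKM in the knockouts. The decay isoform ENSMUST00000225600 (chr13:56609523-56639562) stood at 0.462, 0.746, 0.701 and 0.110 FPKM in the controls, and in the knockouts it was listed at 0 in replicate 1 and had 0.0183 FPKM at most. Neither row had overlapping groups. Control replicate 4 was again the control nearest to the knockouts, high for the coding row and low for the decay row.

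By the deposited abundances, the decay isoform made up 59.0%, 76.9%, 67.2% and 9.21% of the 2 Tgfbi rows in control replicates 1 to 4. In the knockouts its share was 0%, 0.360%, 0.757% and 0.573%. The sum of both rows was 0.998 ± 0.172 FPKM in the control and 1.74 ± 0.481 FPKM in the knockout (SD, n = 4 per group), a ratio of 1.74, against 3.51 for the coding row alone. Without control replicate 4 the ratio of the coding Tgfbi row was 5.87, as the other 3 controls averaged 0.295 ± 0.0630 FPKM (SD, n = 3). The decay row, which shares 90.4% of its exon bases with the coding row, thus differed in the opposite direction, and the difference of the sum was smaller than that of the coding row. The other 3 annotated Tgfbi isoforms were not analysed here.

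**Figure D3:**
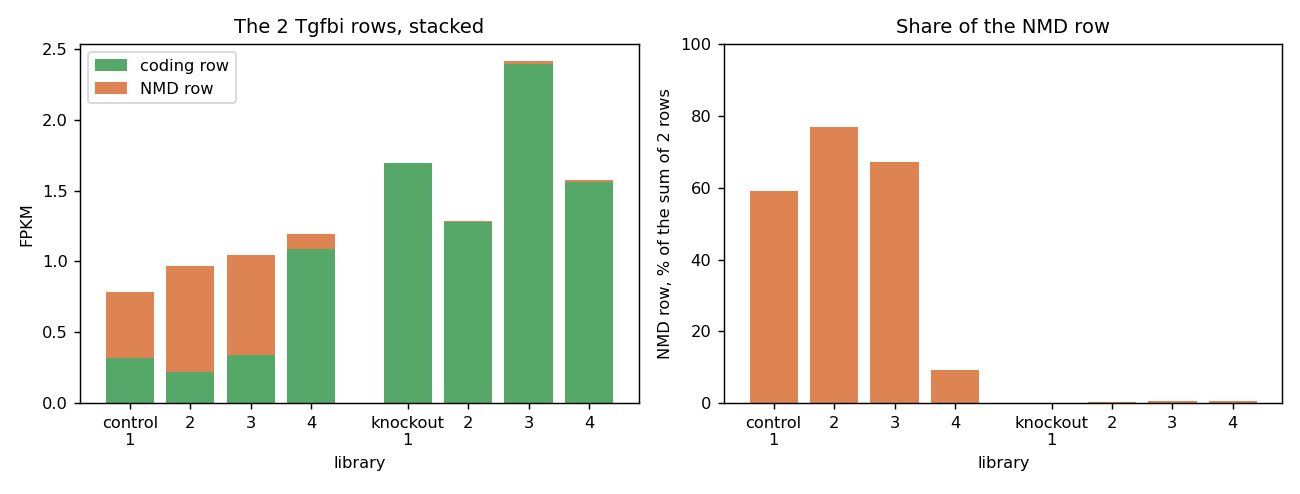
Left, FPKM of the coding (green) and decay (NMD, orange) Tgfbi rows stacked for each library, and right, the decay row as a percentage of their sum. The decay row holds 59.0% to 76.9% in control replicates 1 to 3, 9.21% in control replicate 4 and 0.757% at most in the knockouts.

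The second question was whether the 6 genes vary together from library to library. To keep the knockout difference out of it, the mean of its own group was taken off each gene's log2(FPKM + 0.5) value, with the 2 Tgfbi rows summed, and the remaining deviations were correlated over the 8 libraries. Libraries were permuted within each group in every possible order (exact permutation test, two-sided), and p-values were adjusted over the 15 pairs of genes. Pearson r was above 0 for 8 pairs and below 0 for 7, with a mean of 0.09 and a range of -0.64 to 0.84. For comparison, 50.1% of pairs among 845 other listed rows that averaged 1 FPKM or more had r above 0. No pair passed an adjusted p of 0.05 (exact permutation test, 0 of 15 with Pearson r and 0 with Spearman rho), and 2 pairs had an unadjusted p under 0.05 with Pearson r and 1 with Spearman rho. With 4 libraries per group, the smallest unadjusted p possible is 0.00174 for pairs without Col1a2. It is larger for pairs with Col1a2, because 2 of its controls are tied at 0 and swapping them changes nothing. A pair with Col1a2 could not pass the adjustment over 15 pairs unless another pair also had a low p. That such a pair did not pass is therefore not read as a lack of covariation.

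The pair highest in r was Ly6c1 and Col1a2, with r = 0.84 (exact permutation p = 0.0208, adjusted p = 0.313) and rho = 0.69 (exact permutation p = 0.0799, adjusted p = 0.384). Without control replicates 2 and 4, the libraries farthest from the median for Ly6c1, r was 0.50. Here and below, an r without 2 libraries keeps the deviations from the means of all 4 libraries per group. The libraries left then no longer average to the same level in each group, so an offset between groups can enter that r. With control replicate 4 alone left out, the group means were taken anew. Within the groups r was 0.88 in the controls and 0.53 in the knockouts, each over 4 libraries. Control replicate 4 was above its group mean by 2.39 for Ly6c1 and 1.55 for Col1a2 on the log2 scale, and r was 0.62 without that library. The pair lowest in r was Tagln and Serping1, with r = -0.64 (exact permutation p = 0.0434, adjusted p = 0.326) and rho = -0.93 (exact permutation p = 0.00347, adjusted p = 0.0521). Without knockout replicates 3 and 4, the 2 farthest for Tagln, this r was -0.46. Neither pair passed the adjustment, which Ly6c1 and Col1a2 could not have passed alone, given the tied Col1a2 controls.

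Acta2 and Tagln, the 2 smooth muscle genes, had r = -0.20 (exact permutation p = 0.469, adjusted p = 0.745) and rho = -0.36 (exact permutation p = 0.385, adjusted p = 0.663). Without control replicates 3 and 4, and with the group means of all libraries kept, this r was -0.34. It was 0.53 with a replicate block, so its direction depends on that setting. Acta2 and Col1a2 had r = 0.61 (exact permutation p = 0.274, adjusted p = 0.745) and rho = 0.69 (exact permutation p = 0.0799, adjusted p = 0.384). With the group means of all libraries kept, r of Acta2 and Col1a2 was 0.08 without control replicates 3 and 4. Neither pair passed, and the Tagln row is a retained-intron isoform of low abundance.

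With the most abundant row of each gene in place of the sum, which takes the coding Tgfbi row alone, the order changed. Ly6c1 and coding Tgfbi then had r = 0.96 (exact permutation p = 0.00521, adjusted p = 0.0781) and rho = 0.98 (exact permutation p = 0.00694, adjusted p = 0.0521), against r = 0.56 (exact permutation p = 0.0799, adjusted p = 0.399) with the summed rows. The r was 0.98 in the controls, 0.93 in the knockouts and 0.86 without control replicate 4, with group means taken anew. It was 0.87 without control replicates 2 and 4, with the group means of all libraries kept. Col1a2 and coding Tgfbi had r = 0.72 (exact permutation p = 0.0417, adjusted p = 0.163) and rho = 0.56 (exact permutation p = 0.247, adjusted p = 0.596), with r = 0.21 without control replicates 2 and 4. Again 0 of 15 pairs passed the adjustment (exact permutation test), with 4 at an unadjusted p under 0.05.

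**Figure D4:**
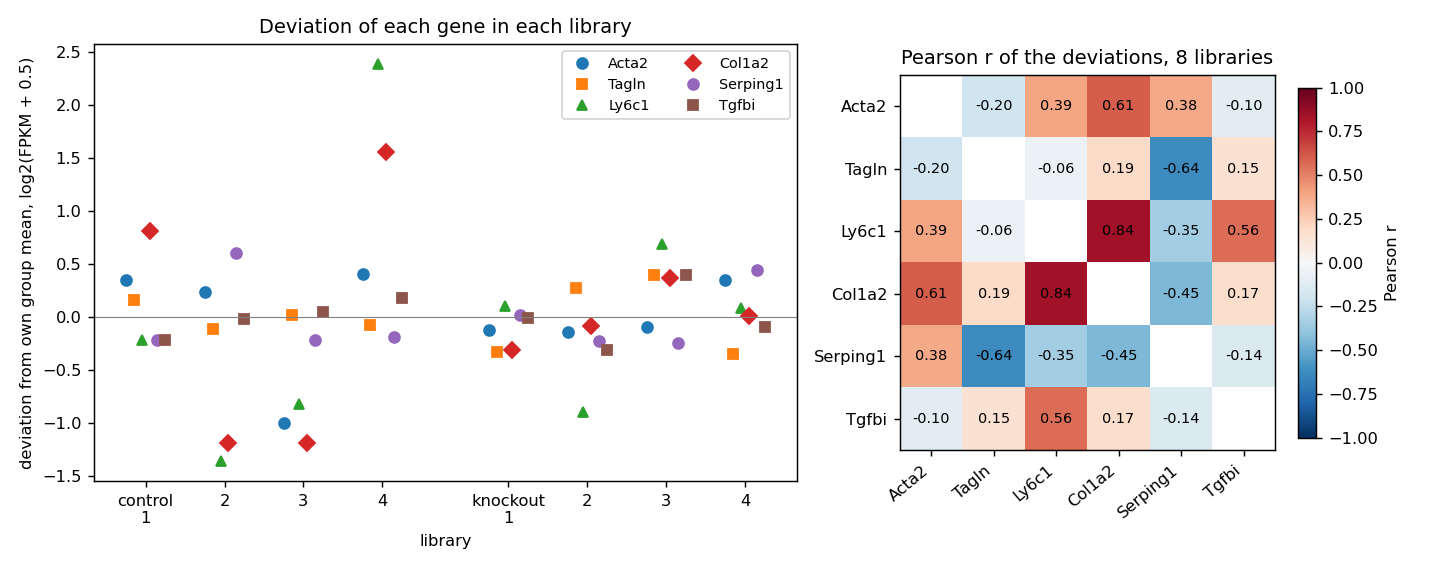
Left, deviation of each gene from its own group mean on the log2(FPKM + 0.5) scale in the 8 libraries, with the Tgfbi rows summed, and right, Pearson r of those deviations for each pair of genes. Control replicate 4 is high for Ly6c1 (2.39) and Col1a2 (1.55) but not for Tagln or Serping1, and r ranges from -0.64 to 0.84.

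Which library was highest also differed among the rows. Among the 6 rows that are higher in the knockout, control replicate 4 was the highest control in 4 (Acta2, Ly6c1, Col1a2 and coding Tgfbi), replicate 1 in the Tagln row and replicate 2 in the Serping1 row. Knockout replicate 3 was the highest knockout in 4 (Tagln, Ly6c1, Col1a2 and coding Tgfbi) and knockout replicate 4 in the other two. Control replicate 4 reached the lowest knockout value in 2 of the 6 rows. Over all 815 listed rows that are higher in the knockout it did so in 190 (23.3%), against 156, 129 and 145 rows for control replicates 1 to 3. It was the highest control in 31.2% of those rows, against 23.7% to 27.6% for the other controls.

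Other markers of the same cells were looked up in the list. The share of all genes that is listed is not known here, so nothing is read from the counts of listed genes. Of 21 endothelial genes, 1 was listed, and it is Ly6c1 itself, which leaves 0 of the other 20. Of 13 smooth muscle genes, 2 were listed, Acta2 and Tagln, and 0 of the other 11. Of 19 meningeal fibroblast genes, 2 were listed, Col1a2 and Serping1, and of 11 perivascular macrophage and monocyte genes only Tgfbi was. The list does not give the level of a gene outside it. Blood and choroid plexus markers had 0 of 5 and 0 of 7 genes listed. The label of a vascular and meningeal group therefore rests on these few rows, and 3 of the 7 are not coding isoforms.

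Pericytes, the contractile cells of capillaries, had 2 of 11 genes listed, both with a higher mean in the knockout. Anpep ENSMUST00000049004, of the surface peptidase CD13, was listed at 0 in control replicates 1 and 2, stood at 1.09 and 1.25 FPKM in control replicates 3 and 4, and ranged from 1.20 to 1.73 FPKM in the knockouts. The model MERGE.26039.7, named Mcam by position, an adhesion molecule of vessel walls, was listed at 0 in control replicates 1 and 4, stood at 1.80 and 4.21 FPKM in control replicates 2 and 3, and ranged from 2.60 to 6.40 FPKM in the knockouts. The controls listed at 0 were not the same libraries for these rows and for Col1a2, and both rows overlapped between groups.

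The genes around the members' functions were looked up in the same way. Of their rows, 0 passed an adjusted p of 0.05 as the authors' deposited table gives it, where 15 of all 1679 rows did. The contractile and SRF list had 3 of 19 genes, all with higher means. Beside Acta2 and Tagln it held Mkl2 ENSMUST00000149359, of a myocardin-related coactivator of the transcription factor SRF, which drives smooth muscle genes. Mkl2 stood at 2.78, 2.88, 3.14 and 47.3 FPKM in control replicates 1 to 4 and at 45.4, 45.0, 47.0 and 51.6 FPKM in the knockouts. Control replicate 4 sat with the knockouts, as it did for Ly6c1 and Col1a2. The LY6 list had 2 of 15 genes: beside Ly6c1 it held Ly6e ENSMUST00000191436, a widely expressed LY6 protein, at 26.6 ± 25.6 FPKM in the control and 93.7 ± 23.8 FPKM in the knockout (SD, n = 4 per group), with control replicate 1, at 63.6 FPKM, above the lowest knockout.

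The collagen list had 2 of 21 genes. Beside Col1a2 it held Pcolce ENSMUST00000128755, from the gene of an enhancer of procollagen processing, a row at 0.121 ± 0.210 FPKM in the control and 0.513 ± 0.310 FPKM in the knockout (SD, n = 4 per group). The TGF-beta list had 3 of 20 genes and 5 rows, 2 higher and 3 lower in the knockout. Ltbp4, a matrix protein that binds latent TGF-beta, was listed in both directions like Tgfbi. Its transcript Ltbp4 ENSMUST00000038618 averaged 8.17 ± 3.51 FPKM in the control and 1.71 ± 2.70 FPKM in the knockout, and Ltbp4 ENSMUST00000121175 averaged 0.600 ± 0.163 and 6.89 ± 4.12 FPKM (SD, n = 4 per group). Knockout replicate 2 was the exception for both isoforms, with 5.69 FPKM of the former and 0.748 FPKM of the latter. Tgfb2 ENSMUST00000045288, of a TGF-beta ligand and named after its values were seen, averaged 5.40 ± 3.42 FPKM in the control and 1.91 ± 1.42 FPKM in the knockout. Of 18 complement genes, only Serping1 was listed.

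**Figure D5:**
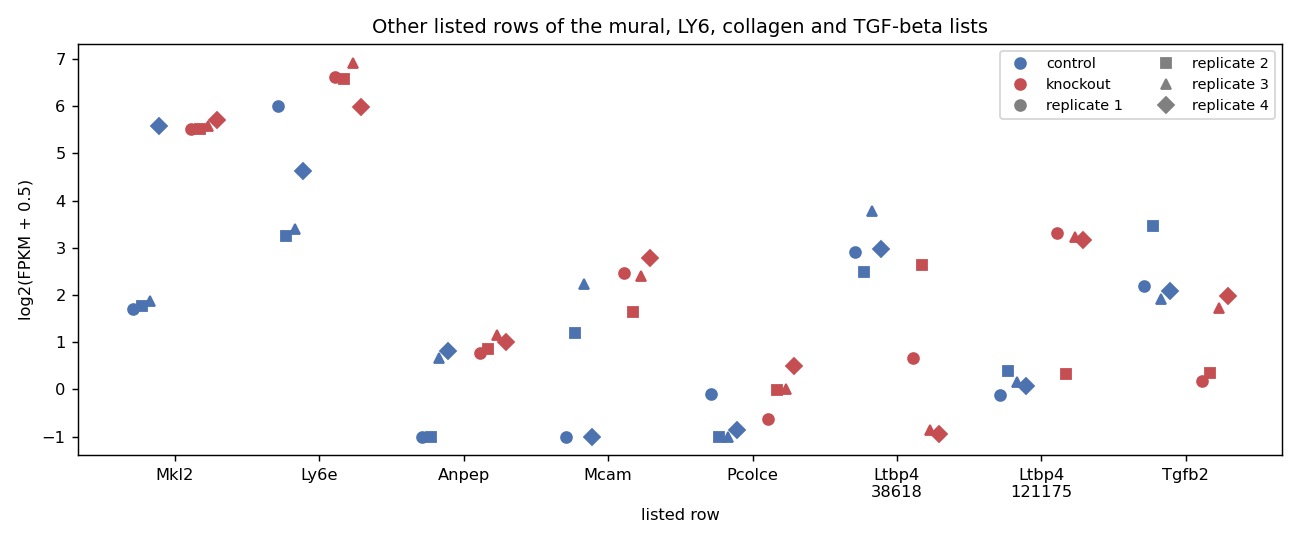
Abundance on the log2(FPKM + 0.5) scale of 8 other listed rows of the contractile, LY6, pericyte, collagen and TGF-beta lists in 4 control (blue) and 4 knockout (red) libraries, with symbols for replicates. For Mkl2 control replicate 4 (47.3 FPKM) lies with the knockouts and the other controls near 3 FPKM, and the Ltbp4 rows differ in opposite directions except in knockout replicate 2.

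Markers of other hippocampal cells were listed in both directions. The neuron list had 2 of 9 genes, both lower in the knockout. A model named Rbfox3 by position, of a nuclear splicing factor of neurons, averaged 32.2 ± 21.1 FPKM in the control and 0.347 ± 0.647 FPKM in the knockout (SD, n = 4 each). For this Rbfox3 model, control replicate 2 stood at 1.38 FPKM, close to knockout replicate 1 at 1.32 FPKM. A model named Prox1, of a granule cell transcription factor, had means of 14.5 ± 5.32 FPKM and 6.26 ± 6.22 FPKM in those groups (SD, n = 4 each). Of the microglia list, Csf1r, the receptor for colony-stimulating factor, had a lower mean in the knockout, at 0.434 ± 0.755 FPKM against a control mean of 6.66 ± 9.77 FPKM (SD, n = 4 per group), where control replicate 1 stood at 21.3 FPKM. The astrocyte list had 1 of 8 genes, a model named Agt by position, higher at 5.36 ± 3.06 FPKM against 1.27 ± 1.10 FPKM. The oligodendrocyte list had 1 of 7 genes, Mag, lower at 1.46 ± 0.883 FPKM against 2.69 ± 0.197 FPKM (SD, n = 4 per group). The ependymal list had 1 of 6 genes, Foxj1, with a model named by position in each direction. The part of these cells in the values of the vascular rows was not tested.

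For each member gene, the other listed rows most like it in their deviations from the group means were sought among 845 rows averaging 1 FPKM or more, over 8 libraries and as a description only. Acta2 was nearest to Cdc27 ENSMUST00000093923 (r = 0.88). Tagln was nearest to the unnamed model MERGE.2575.1 (r = 0.98) and to Apc2 ENSMUST00000105359 (r = 0.96). Ly6c1 was nearest to Dbi ENSMUST00000128408 and Morf4l1 ENSMUST00000191353, both at r = 0.95. Col1a2 was nearest to models named Use1 (MERGE.24726.8, r = 0.97) and Cdh10 (MERGE.8644.3, r = 0.96) by position. Serping1 was nearest to models named Ablim3 (MERGE.12009.5, r = 0.91) and Oxnad1 (MERGE.7827.5, r = 0.89). Tgfbi, with its coding and decay rows summed, was nearest to a model named Mcph1 (MERGE.24250.3, r = 0.92) and to Asl ENSMUST00000160557 (r = 0.87). Rows nearest to the coding Tgfbi row alone were not sought. None of these rows is on the vascular or matrix lists, and between 8 and 26 rows reached r = 0.8 with each gene, which in 8 libraries is a weak mark of likeness.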

How the data were processed

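Hippocampal RNA was profiled in 4 control and 4 Jade2-knockout libraries. Per the labels' protocols, Trizol served for the RNA and a NEBNext Ultra kit for the libraries. HISAT2, Cuffdiff and mm10 are named in the submitters' processing notes, without versions. The authors deposited an abundance per transcript and library with no unit named, taken here as FPKM, and their own log2 fold changes and p-values, made with a test that the sources used here do not give. The adjusted p-values imply 104721 tested transcripts, of which 1.60% are listed. Depth and counting error are unknown.

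Abundances were analysed as log2(FPKM + 0.5). With R 4.3.3, limma 3.58.1 (variance trend on) was fitted to listed rows with a mean of at least 1 FPKM and adjusted (Benjamini-Hochberg) over 104721 transcripts, as the list is selected on p. The limma fit and the permutation test of the correlations were checked on simulated data. Python 3.11.15, numpy 2.4.6, scipy 1.17.1, pandas 2.3.3 and matplotlib 3.10.9 did the rest. Coordinates and sequences come from GENCODE M21 (GRCm38). The annotated Acta2 transcript reaches 254 bases beyond the deposited one at its 5′ end, and the other 6 member rows have identical coordinates. Models without a symbol were named by at least 50% reciprocal overlap on the same strand.

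The genes, lists and tests were chosen with earlier results of these data known. Named rows are all rows of the 6 genes, up to 4 rows of each of 17 lists by the authors' p, and the 2 rows nearest to each gene; a few of these are not reported here. Alternatives were other pseudocounts, filters, median scaling, no variance trend, a replicate block, single rows for sums and each library left out. A pseudocount of 0.001 and the counts of rows with a library left out were added after seeing the data.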

Additional observations from a re-analysis of the deposited data

Results flagged for a closer look

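In 4 of 14 groups of 4 libraries, the gap in FPKM between 1 library and the nearest of the rest was past Dixon's 95% critical value for 4 samples. The gap was taken as a share of the group's range. For independent groups of normal values, chance would flag about 1 in 20, or 0.7 of 14. These groups share their libraries, and FPKM values need not be normal, so nothing is read from the count. Control replicate 4 stood out for Ly6c1 ENSMUST00000179762, at 6.87 FPKM against 0.714 FPKM for the next control, and for the coding Tgfbi row ENSMUST00000045173, at 1.09 FPKM against 0.342 FPKM. Control replicate 2 stood out for Serping1 ENSMUST00000131456, at 1.00 FPKM against 0.367 FPKM. Knockout replicate 4 stood out for Acta2 ENSMUST00000039631, at 8.98 FPKM against 6.48 FPKM.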

How the results depend on the processing

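Limma called 0 of 849 listed rows at an adjusted p of 0.05, 7 of 1679 with no abundance filter, and between 0 and 4 when 1 library was left out (4 without control replicate 2, 1 without control replicate 1 and 1 without control replicate 4). Of the member rows limma called 0 under every alternative run. The differences of the 7 rows kept their sign in all 91 alternatives, as their selection requires, and 12 of these, all at other pseudocounts, moved a value by more than the spread between replicates. With each library left out in turn, 6 of the 7 rows had a higher mean in the knockout, and the rows whose groups do not overlap numbered 5 to 7. They numbered 7 without control replicate 4, when 47.1% of all listed rows do not overlap. That library is the only control that reaches the knockouts in the member rows that overlap, so leaving it out fixes this count. Correlated pairs passing the adjustment numbered 0 of 15 under every alternative run, and the mean r lay between 0.04 and 0.15 with 1 library left out. Only 144 orders exist with 1 library left out, and 24 were used with the replicate block. In those settings a single pair at the smallest p possible could not pass the adjustment over 15 pairs. The counts of 0 in those settings therefore show nothing about stability. With all libraries and no replicate block, a pair with Col1a2 could likewise not pass alone, because of its tied controls. Same-numbered libraries of the groups did not deviate together (r between -0.03 and 0.04 over 849 rows), so the labels' numbers are not taken as pairs. With the replicate block limma called 0 rows, 0 of them members, and 0 correlated pairs passed, but r of Acta2 and Tagln turned from -0.20 to 0.53 and the mean r over pairs went from 0.09 to 0.23. The exact tests with 4 libraries per group limit what a correlation can show.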
